A study of Drosophila melanogaster with 6 samples.

Results

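The dpr and beat genes encode neuronal cell-surface and secreted proteins of the immunoglobulin superfamily, and CAP-D3 peaks at these genes were counted in a Drosophila cell line. The set comprised the 21 dpr genes and the 14 beat genes, chosen by name, so 35 of the 17684 genes that the Release 6 plus ISO1 MT annotation placed on 2L, 2R, 3L, 3R, 4 and X. All 35 were found by symbol. A peak was assigned to a gene when it overlapped the annotated span, extended by 1000 bp on both sides, by at least 1 bp. In ChIP-seq, an antibody pulls down a protein with the DNA attached to it, and a peak is a stretch of the genome where that DNA exceeds the input. The study compared 3 kinds of sample from untreated cells that carried no labelled mutation or transgene. These were CAP-D3 ChIP with the rabbit antibody YZ384, ChIP with normal rabbit IgG, which recognizes no particular chromatin protein, and input chromatin that was not precipitated. The labels give 2 samples of each and name the cells S2R+, of embryonic origin and strain Oregon R, whereas the paper's methods name S2-DRSC cells and give 3 experiments per antibody. S2 lines are hemocyte-like and not neuronal, and expression was not measured here, so the identity of the cells could not be checked against marker genes. One list of CAP-D3 peaks and one of IgG peaks, each called against input, stood for all experiments, so no value below carries an error between replicates, and no test between conditions was possible.

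CAP-D3 is a subunit of Condensin II, a complex that compacts and organizes chromosomes. The dpr genes are named after the first member, dpr1, whose mutants show a defective proboscis extension response to salt. Dpr proteins sit on the surface of neurons and bind DIPs (Dpr-interacting proteins), and matching Dpr and DIP pairs help neurons to find and keep synaptic partners. Beat proteins, named after beaten path (beat-Ia), act together with cell-surface proteins of the Side (Sidestep) family. Beat-Ia is secreted by motor neurons and lets motor axons leave their bundles to reach muscle, while Side marks the surfaces that these axons follow.

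The whole CAP-D3 list held 22108 peaks and the IgG list 3915. The score of a peak was deposited by the authors as −log10 of its p-value or q-value from MACS. Scores ran from 2 in both lists to 141 for CAP-D3 and 46.6 for IgG, and 41.9% of CAP-D3 peaks had a score of at least 10. Without read counts library depth is unknown, and numbers of peaks were not compared between antibodies as amounts of binding. The labels do not name the genome assembly. Peak positions were matched to Release 6 by the scarcity of peak midpoints within 150 bp of annotated gene ends, where 2.76% of CAP-D3 peaks lay, against 7.97 to 8.94% after the peaks were moved by 500 to 5000 bp in either direction.

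Across the set, CAP-D3 peaks were about as dense as in the genome, and a few dpr genes held a large part of them. The 35 genes held 240 CAP-D3 peaks, and no peak lay at more than 1 member. Together the extended spans covered 1485 kb, so the density was 0.162 peaks per kb (95% exact Poisson interval 0.142 to 0.183). This interval and those below reflect counting error alone, with each peak taken as independent. The density over the 6 chromosomes was 0.165 peaks per kb. At the mean density of each member's own chromosome, 263 peaks would lie in the same lengths. The number per gene ran from 0 to 32 with a median of 5. The members were 3.74 to 165 kb long, and length has to be considered in every comparison of counts.

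At least 1 CAP-D3 peak lay at 31 of the 35 genes (88.6%). Over all annotated genes the share was 55.7%, and over the 4587 genes within the length range of the members it was 77.9%. For each member, the 200 other genes of the same chromosome nearest in length were taken as comparison genes, and a mean of 86.9% of them had a peak. The share of members with a peak was thus close to that of genes of similar length. Scores of 10 or more leave 9254 peaks in the whole CAP-D3 list and 94 at the members. With these, 25 members had a peak, against 33.1% of all genes, a share not matched for length. Relative to the mean count of its comparison genes, the median member had a ratio of 0.91 with all peaks, beside 0.65 over all genes and 0.91 over the genes of the members' length range. With scores of 10 or more, the median ratio of the members was 0.965. The counts that follow are of all peaks. The ratio was above 1 in 17 members and below 1 in 18.

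**Figure D1:**
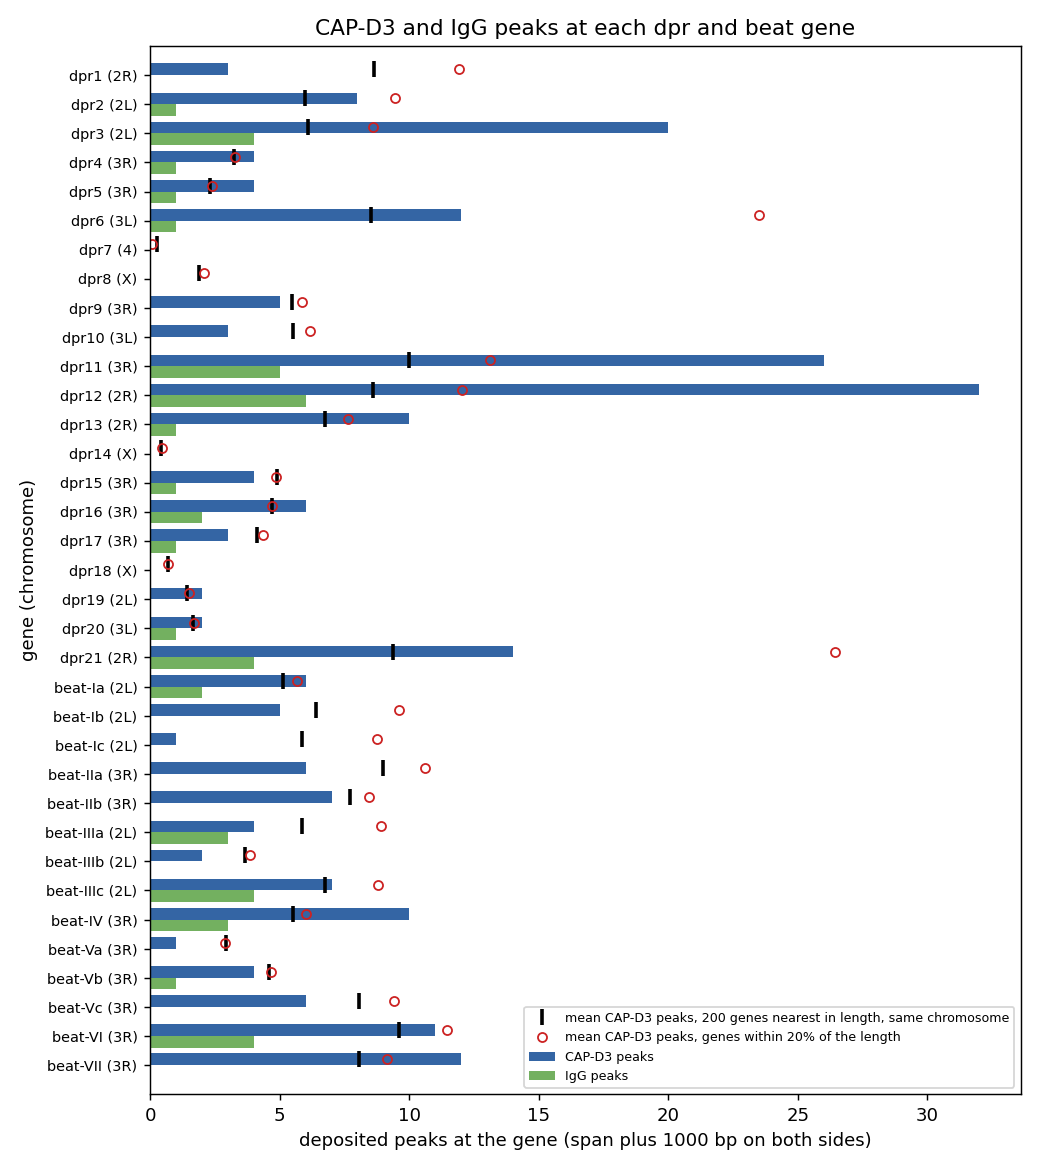
Number of deposited CAP-D3 peaks (blue bars) and IgG peaks (green bars) at each dpr and beat gene, with the chromosome in parentheses. Black marks give the mean CAP-D3 count of the 200 genes nearest in length on the same chromosome (all other genes for dpr7 on 4), and red circles that of genes within 20% of the length. The bars of dpr12, dpr11 and dpr3, with 32, 26 and 20 CAP-D3 peaks, pass both marks by the most, and dpr7, dpr8, dpr14 and dpr18 have no bar.

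For the longest members the comparison genes were shorter than the member, because few genes on a chromosome are as long. Counts at genes within 20% of the length give the stricter view. The members' 240 peaks compared with a sum of 190 for the means of the 200 nearest genes, a ratio of 1.27, and with a sum of 259 for the means of genes within 20% of the length, a ratio of 0.93. The direction for the whole set thus turned with the choice of comparison genes. With genes within 20% of the length, 12 members were above 1 and 23 below, and the 5 that changed sides were dpr2, dpr6, dpr21, beat-IIIc and beat-VI. Compared per kb with their 200 comparison genes, 11 were above 1 and 24 below.

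Of the 35 members, 3 (8.57%) had at least 3 peaks and at least 2 times the mean of the 200 comparison genes. They were dpr12, dpr3 and dpr11. The same was true of 7.01% of all genes, of 11.9% of genes within the members' length range and of 22.3% of those over 30 kb, so the number of such members is near the background. These 3 genes held 78 of the 240 peaks, or 32.5%, in 11.9% of the set's length, and their joint density was 0.44 peaks per kb (95% interval 0.348 to 0.549). The other 32 members held 162 peaks at 0.124 per kb (0.106 to 0.145). Against genes within 20% of the length, their summed counts gave ratios of 2.31 and 0.72, respectively. The 3 genes were picked by these same counts, so a gap between them and the rest was fixed in advance. The intervals do not allow for this choice.

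The gene dpr12, on 2R, encodes the Dpr that pairs with DIP-delta in the mushroom body. It had 32 CAP-D3 peaks in a span of 56.1 kb, or 0.551 per kb (95% interval 0.377 to 0.777), the most peaks and the highest density of all members. Its ratio was 3.72 to the 200 comparison genes, 99.0% of which had fewer peaks, and 2.66 to the 38 genes within 20% of its length, of which 1 had at least as many. In the 100 kb on either side of the gene, the density was 0.24 per kb. The peaks were spread along the span. Divided into 5 equal parts of 11.2 kb, it held 6, 8, 7, 8 and 3 peak midpoints from left to right, the median distance between neighboring midpoints was 1.28 kb, and the longest stretch without one was 5.13 kb. No other gene of the annotation overlaps the span, so these peaks have no other gene to be assigned to within it. Scores were moderate, with a median of 9.29 and a highest of 17.4.

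The gene dpr3, on 2L, encodes another Dpr of neurons and had 20 CAP-D3 peaks in 51.1 kb, or 0.377 per kb (0.23 to 0.582). Its ratio was 3.27 to the 200 comparison genes and 2.32 to the 38 genes within 20% of its length, of which 1 had at least as many peaks. The flanking 100 kb on either side had 0.29 peaks per kb. Its peaks lay toward one end, with 7, 6, 4, 2 and 0 midpoints in 5 equal parts of 10.2 kb and an empty stretch of 15.9 kb. Of these peaks, 55.0% had a score of at least 10, above the 41.9% of the whole list, and 3 lay in shorter genes within the span, CG12674, lncRNA:CR44808 and lncRNA:CR44055.

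The gene dpr11, on 3R, encodes a ligand of DIP-gamma, known from color-sensing photoreceptors and the neuromuscular junction. It had 26 CAP-D3 peaks in 64.2 kb, or 0.393 per kb (0.257 to 0.576). Its ratio was 2.60 to the 200 comparison genes and 1.98 to the 31 genes within 20% of its length. Most of its peaks were weak, with a median score of 7.40, and only 15.4% of them had a score of at least 10. With peaks of at least that score, the ratio fell to 0.97, whereas those of dpr12 and dpr3 were 3.65 and 4.25. Midpoints were spread over the span, with 5, 7, 2, 6 and 4 in 5 equal parts of 12.8 kb, and 5 of them lay within other genes, among them CG2336, CG1137 and Pif2.

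The IgG list was dense at the same 3 genes. It had 6 peaks at dpr12, 5 at dpr11 and 4 at dpr3, and all 15 overlapped a CAP-D3 peak. Of the whole IgG list, 79.2% did so, and these 3 genes were picked for their many CAP-D3 peaks. Summed over the 3 genes, IgG peaks were 3.07 times the mean of the 200 comparison genes and CAP-D3 peaks 3.16 times. These comparison genes were shorter, with mean lengths of 37.0 kb for dpr12, 33.9 kb for dpr3 and 42.6 kb for dpr11. Against genes within 20% of the length the CAP-D3 ratio was 2.31, and the IgG ratio is not given here. When every CAP-D3 peak that overlapped an IgG peak was left out, the CAP-D3 ratios were 3.56 for dpr12, 3.17 for dpr3 and 2.48 for dpr11. The part that recovery without a specific antibody has in these counts was not tested.

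**Figure D2:**
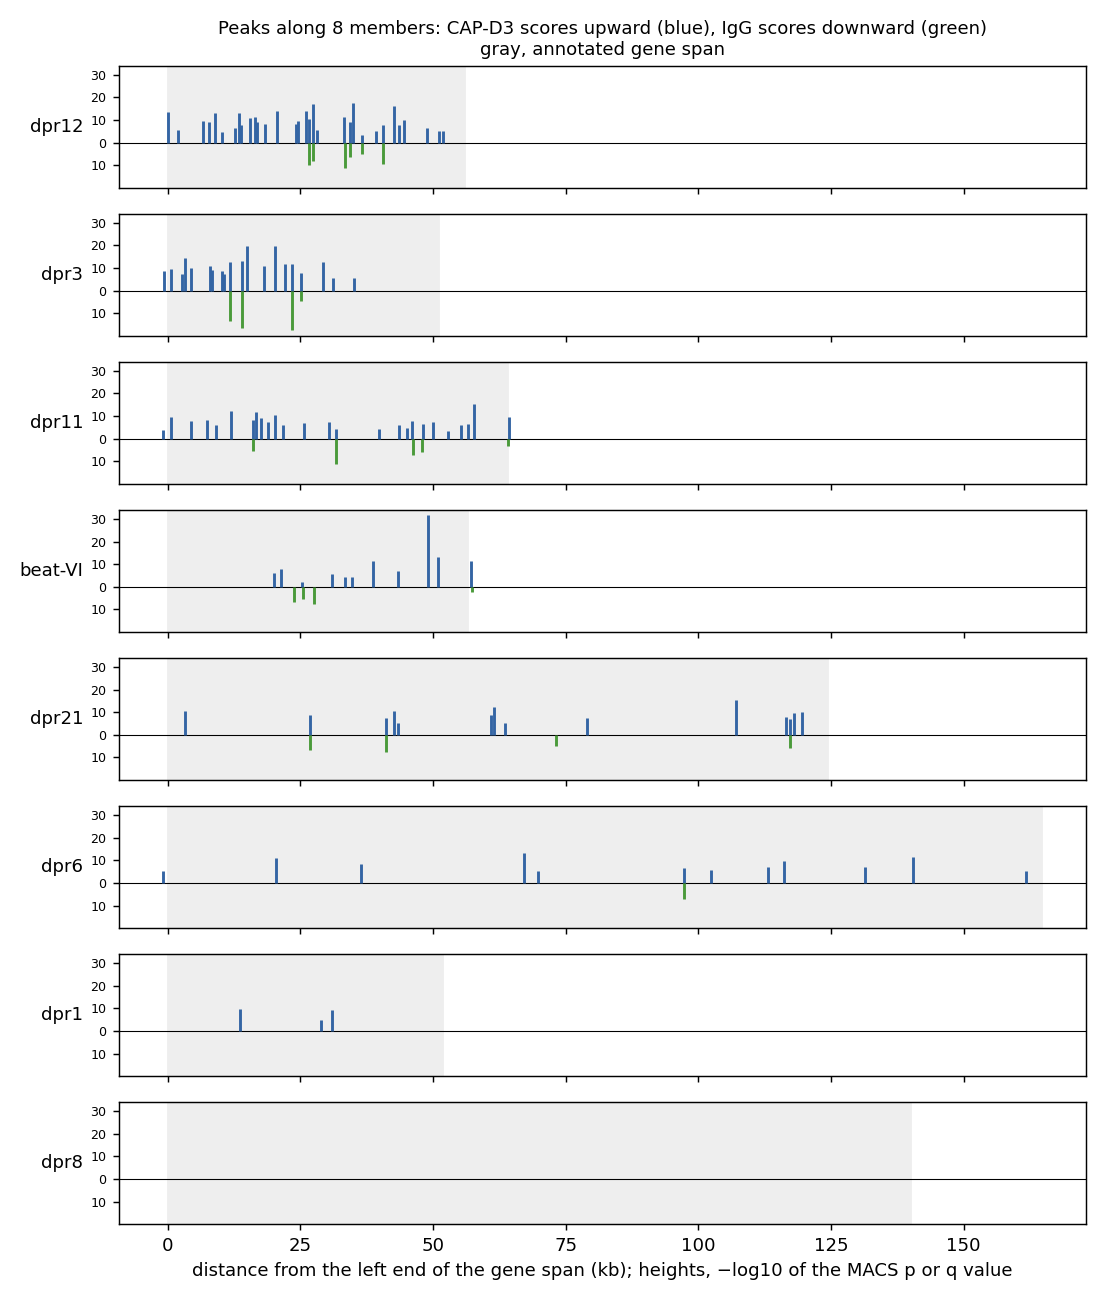
Peaks along 8 members, drawn to one scale as distance in kb from the left end of the annotated span (gray), with the CAP-D3 score upward (blue) and the IgG score downward (green). Peaks crowd dpr12, dpr3 and dpr11, stand far apart in dpr21 and dpr6, number 3 in dpr1 and are missing along the 140 kb of dpr8, and the tallest line, with a score of 31.6, is in beat-VI.

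The 4 members without a CAP-D3 peak were dpr7 on chromosome 4 and dpr8, dpr14 and dpr18 on X. They had no IgG peak either. All 31 members on 2L, 2R, 3L and 3R had at least 1 CAP-D3 peak, near the mean of 94.0% of their comparison genes. The 4 genes cover 165 kb. For a count of 0, a limit of 3 peaks was used, which for dpr8, with a span of 140 kb, is a density of up to 0.0211 per kb, and the upper end of the 2-sided exact Poisson interval, as plotted against length, is 0.026 per kb. Both lists are sparse on these chromosomes, with 0.0434 CAP-D3 peaks per kb on X and 0.019 on 4, against 0.193 on the other arms. At the mean density of X, 6.16 peaks would be found at dpr8, but long genes of X had fewer. The 14 X genes within 20% of its length had a mean of 2.07 peaks, and 6 of them had none. Of the X genes of similar length, 161 of 238 had no peak for dpr14 and 119 of 176 for dpr18, and on chromosome 4 the number was 11 of 12 for dpr7. An absence particular to these genes was therefore not detectable.

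Among the other dpr genes, density was highest at short ones and lowest at some of the longest. Comparison genes on 3L went the same way, with 0.2545 peaks per kb for those of the short dpr20 and 0.163 for those of dpr6. The part of length in this order was not tested. The genes dpr6 and dpr10 encode the Dprs that bind DIP-alpha, and they are neighbors on 3L, 8.09 kb apart with no gene between them. The 165-kb dpr6 is the longest member and had 12 CAP-D3 peaks, or 0.072 per kb (0.0372 to 0.126), with an empty stretch of 30.6 kb. The 38.7-kb dpr10 had 3 peaks, or 0.0738 per kb (0.0152 to 0.216). The surroundings were sparse as well, at 0.13 peaks per kb around dpr6 and 0.09 around dpr10. For dpr6 the ratio was 1.41 to the 200 nearest genes and 0.51 to the 6 genes within 20% of its length, so its direction depends on which genes count as similar. The founding member dpr1, on 2R, had 3 peaks in 52.0 kb, a ratio of 0.35 to the 200 nearest genes and 0.25 to the 44 within 20% of its length, of which 41 had at least as many. None of its peaks scored 10 or more, and it had no IgG peak.

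The Dprs that bind DIP-gamma along with Dpr11 are encoded by dpr15, dpr16 and dpr17, all on 3R like dpr11. They had 4, 6 and 3 CAP-D3 peaks, with ratios of 0.82, 1.28 and 0.73. The 125-kb dpr21, on 2R, had 14 peaks, or 0.111 per kb (0.0605 to 0.186), and only 1 CAP-D3 peak lay within 100 kb on either side of it. Its ratio was 1.49 to the 200 nearest genes and 0.53 to the 7 within 20% of its length. The gene dpr13 had 10 peaks (ratio 1.49) and dpr2 had 8, all in the left 2 of 5 equal parts of its span. The ratio of dpr2 was 1.34 to the 200 nearest genes and 0.85 to the 45 within 20% of its length. The shorter dpr9 had 5 peaks, dpr4 and dpr5 had 4 each (0.349 and 0.502 per kb), and dpr19 and dpr20 had 2 each, with ratios from 0.91 for dpr9 to 1.74 for dpr5. With so few peaks the intervals were wide, at 0.095 to 0.893 per kb for dpr4 and 0.137 to 1.285 for dpr5. Both peaks of dpr19 lay outside the gene, in its flanks, so it has no peak midpoint in its span.

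**Figure D3:**
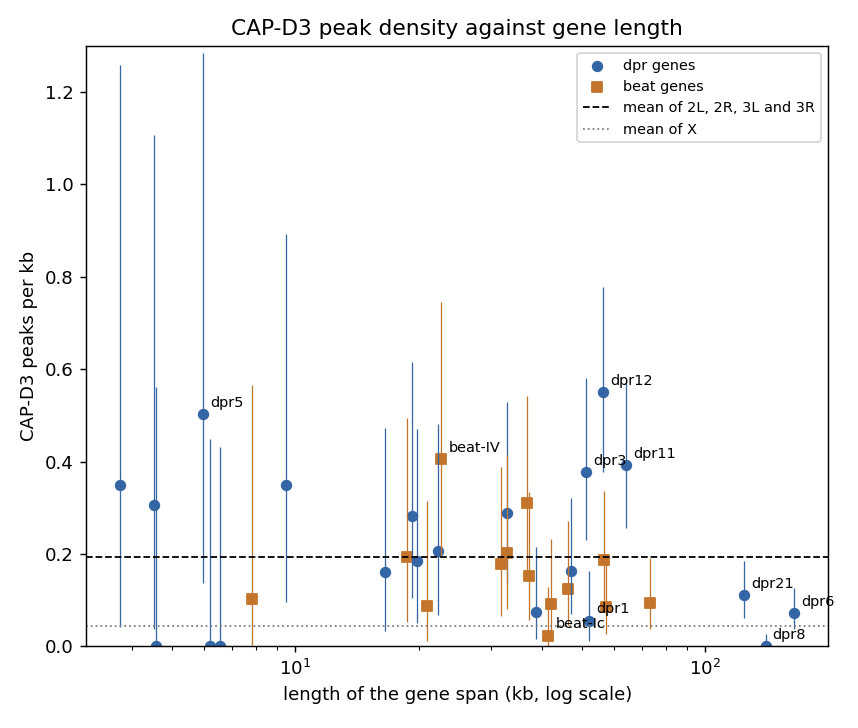
CAP-D3 peaks per kb of the extended span against the length of the gene span (log scale) for dpr genes (blue circles) and beat genes (orange squares), with 95% exact Poisson intervals as vertical lines. The dashed line is the mean of 2L, 2R, 3L and 3R (0.193 per kb) and the dotted line that of X (0.0434 per kb). Of the members over 30 kb, dpr12, dpr3 and dpr11 have intervals wholly above the dashed line, as does the 22.7-kb beat-IV, and intervals of short genes are wide.

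The beat genes all had CAP-D3 peaks, as did a mean of 96.1% of their comparison genes, and no beat gene passed the 2-fold rule. The 14 genes lie on 2L and 3R and held 82 CAP-D3 peaks in 553 kb, or 0.148 per kb (0.118 to 0.184). The dpr genes on 2L, 2R, 3L and 3R held 158 in 767 kb, or 0.206 per kb (0.175 to 0.241), and 0.136 per kb (0.108 to 0.169) without dpr12, dpr3 and dpr11. The interval of the beat genes overlapped both. Those 3 dpr genes were picked by their high counts, so leaving them out was bound to lower the dpr value. What the difference between the families rests on was not tested. Against their comparison genes, 5 beat genes were above 1 and 9 below, with a median ratio of 0.83.

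The founding member beat-Ia, with its neighbors beat-Ib and beat-Ic on 2L, had 6 CAP-D3 peaks in 31.7 kb (ratio 1.17), beat-Ib had 5 in 57.3 kb (0.78) and beat-Ic had 1 in 41.4 kb (0.17). Only 3.5% of the comparison genes of beat-Ic had fewer peaks, and all 50 genes within 20% of its length had at least as many. Its single peak had a score of 14.9, and the longest stretch without one was 38.7 kb. The genes beat-IIa and beat-IIb, whose products bind Side-IV, had 6 and 7 peaks (0.67 and 0.91), and no IgG peak. In the beat-III group on 2L, beat-IIIa had 4, beat-IIIb 2 and beat-IIIc 7 peaks (0.68, 0.55 and 1.04), and against genes within 20% of the length the ratio of beat-IIIc was 0.80. All 4 peaks at beat-IIIa also lie within CG34106, which overlaps it, so they cannot be assigned to one of these genes. The beat-V group, whose products bind Side-VI, had 1 peak at beat-Va, 4 at beat-Vb and 6 at beat-Vc (0.34, 0.87 and 0.74), and the peak of beat-Va lay in its flank.

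The remaining beat genes, beat-IV, beat-VI and beat-VII on 3R, had 10, 11 and 12 CAP-D3 peaks, with ratios of 1.81, 1.15 and 1.49, or 1.66, 0.96 and 1.31 to genes within 20% of the length, so beat-VI changed sides. Their surroundings were dense too, at 0.335, 0.38 and 0.31 peaks per kb in 100 kb on either side. At beat-VI the surroundings had more peaks per kb than the gene, whose density was 0.188 per kb.

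These same 3 genes held the only member peaks with a score of at least 20, which were 3 of 240 (1.25%), against 2.33% of the whole list. The highest-scoring CAP-D3 peak of the set was MACS peak 20024 in beat-VI, on 3R from 28467083 to 28467370 (288 bp), with a score of 31.6, rank 33 of 22108. It lay inside the span and overlapped neither an IgG peak nor another gene. MACS peak 18853 in beat-IV, on 3R from 23569303 to 23569701, had a score of 29.0 and rank 63, but it shared 282 bp with IgG peak 3448. That IgG peak had a score of 19.3, the highest among IgG peaks at members, and ranked 39 of 3915. MACS peak 19542 in beat-VII, on 3R from 26671604 to 26671854, scored 22.4 and overlapped no IgG peak.

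Lower in score were peaks of dpr genes. In dpr3, MACS peak 618 (2L, 2073527 to 2073808) and MACS peak 620 (2L, 2078700 to 2079276) scored 19.8 and 19.7, and in dpr13 MACS peak 7551 (2R, 18002396 to 18002645) scored 18.5. None of these 3 overlapped an IgG peak. Of the peaks that overlapped an IgG peak, the second-highest score after that in beat-IV was in dpr17, where MACS peak 16086 (3R, 12107307 to 12107860) scored 17.8. The second-highest IgG score at a member, 17.3, was that of IgG peak 126 in dpr3 (2L, 2082078 to 2082364), which lies over lncRNA:CR44808 within the span. Over all 240 peaks the median score was 8.73, against 9.16 in the whole list, and the median width 306 bp, against 324 bp. Exons and introns could not be separated because only gene spans were used here.

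IgG peaks were found at 19 of the 35 members (54.3%), against 14.2% of all genes and 30.7% of genes within the members' length range, and a mean of 48.9% of the comparison genes. The members held 46 IgG peaks, or 0.031 per kb, against 0.0291 over the 6 chromosomes. Besides the 3 dpr genes above, dpr21, beat-IIIc and beat-VI had 4 each, beat-IIIa and beat-IV 3 each, dpr16 and beat-Ia 2 each, and 9 members had 1, namely dpr2, dpr4, dpr5, dpr6, dpr13, dpr15, dpr17, dpr20 and beat-Vb. Of the 46, 36 (78.3%) overlapped a CAP-D3 peak, close to the 79.2% of the whole IgG list. Seen from CAP-D3, 37 of 240 member peaks (15.4%, 95% Wilson interval 11.4 to 20.5%) overlapped an IgG peak, against 13.9% (13.5 to 14.4%) of the whole CAP-D3 list. By family it was 17.1% for dpr (12.0 to 23.7%) and 12.2% for beat (6.76 to 21.0%), with overlapping intervals. Among members with more than 3 peaks the share was highest at dpr5 and beat-IIIa, with 2 of 4 peaks each. The 12 peaks of beat-VII included none that overlapped an IgG peak, and the same held at other members, such as beat-IIb with 7 peaks and beat-IIa with 6.

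**Figure D4:**
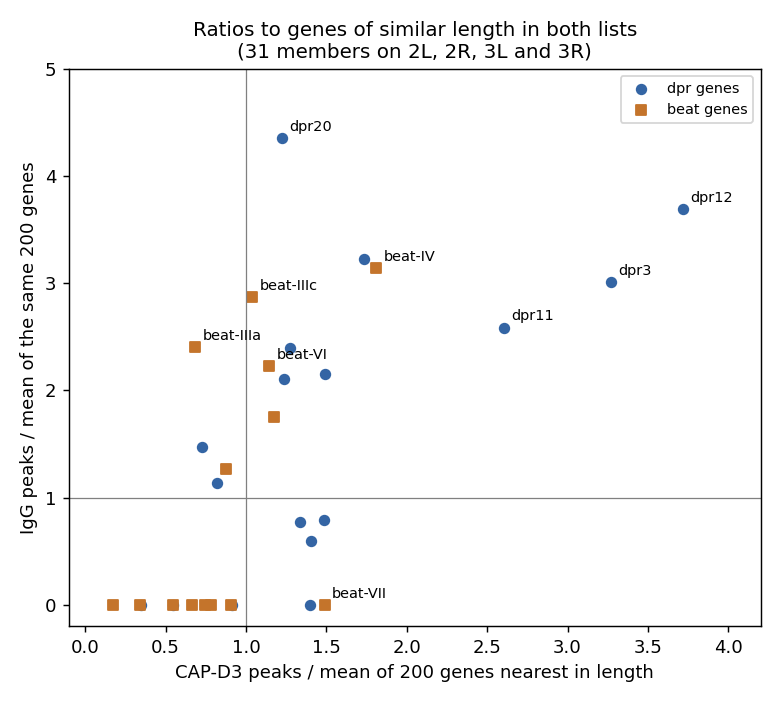
Ratio of IgG peaks to the mean of the 200 comparison genes against the same ratio for CAP-D3 peaks, for the 31 members on 2L, 2R, 3L and 3R (dpr, blue circles; beat, orange squares; lines at 1). The points of dpr12, dpr3 and dpr11 are high on both axes, at 3.72 and 3.69, 3.27 and 3.01, and 2.60 and 2.58, while beat-VII has a CAP-D3 ratio of 1.49 and no IgG peak.

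Within the members, most peak midpoints lay inside the annotated spans, at a share below that of the bases. Midpoints of 221 of the 240 peaks (92.1%) fell inside the annotated spans, which make up 95.3% of the extended length. Of the 240 peaks, 26 (10.8%) lay within 1000 bp of an end of the member itself, against 9.43% of the length, and 2 within 150 bp. Of the 221 midpoints inside the spans, 19 (8.60%) also lay in another annotated gene, and such genes take up 6.97% of the span length. Within 1000 bp of any annotated gene end lay 21.3% of the member peaks, against 31.7% of all CAP-D3 peaks on the 6 chromosomes. The members are longer than most genes, and the part of length in this difference was not tested.

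The genes of the binding partners were counted in the same way. The 11 DIP and 8 side genes held 161 CAP-D3 peaks and 39 IgG peaks in 1144 kb, or 0.141 CAP-D3 peaks per kb (0.12 to 0.164), and the median ratio was 1.37 (0.96 to genes within 20% of the length). Peaks were found at all 11 DIP genes, beside a mean of 84% of their comparison genes. The DIP genes on X had peaks, 4 at DIP-alpha and 3 at DIP-beta, all 4 of the former in other genes that overlap DIP-alpha. Of their comparison genes on X, 48% and 45% had a peak, respectively, so presence and absence were both common there. Whether these DIP genes differ from dpr8, dpr14 and dpr18, which had no peak, was not tested. The partner genes past the 2-fold rule were DIP-alpha (ratio 2.33), DIP-epsilon (2.31, with 12 peaks) and side-III (2.34, with 26 peaks), and against genes within 20% of the length their ratios were 1.85, 1.86 and 1.32. These are 3 of 19 genes, all over 30 kb long. The rule was passed by 7.01% of all genes, 11.9% of genes within the members' length range and 22.3% of those over 30 kb. DIP-lambda, which spans 379 kb on 2R, had 17 CAP-D3 and 14 IgG peaks, and 10 of the 17 overlapped an IgG peak. Among the side genes, side-IV and side-VII had no peak in either list.

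For genes whose products bind each other, densities were set side by side with no test. The gene dpr12 had 0.551 peaks per kb and DIP-delta 0.0986 (2 peaks), whereas dpr11 had 0.393, dpr15 0.184, dpr16 0.283 and dpr17 0.162, beside 0.317 for DIP-gamma (15 peaks). The DIP-alpha ligands had 0.072 for dpr6 and 0.0738 for dpr10, beside 0.0602 for DIP-alpha, where the chromosome differs. On the beat side, beat-Ia had 0.178 and side 0.186, beat-IIa and beat-IIb had 0.125 and 0.201 and side-IV none, and beat-Va, beat-Vb and beat-Vc had 0.101, 0.193 and 0.153 against 0.251 for side-VI.

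Another set of neuronal immunoglobulin genes, robo1, robo2, robo3 and Dscam1 to Dscam4, held 63 CAP-D3 peaks in 273 kb, or 0.231 per kb (0.177 to 0.295). This interval overlaps that of the dpr genes on 2L, 2R, 3L and 3R. It lies mostly above that of the beat genes, and both overlap between 0.177 and 0.184. The gene past the 2-fold rule in this set was robo2, which encodes a receptor for Slit in axon guidance, with 18 peaks and a ratio of 3.14 (2.21 to genes within 20% of the length). It is 1 of 7 genes, and the rule was passed by 7.01% of all genes and by 22.3% of those over 30 kb within the members' length range.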

How the data were processed

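ChIP-seq was performed by the authors for CAP-D3 and IgG, with input, in S2 cells, and the deposited files are 1 MACS peak list per antibody. The score deposited by the authors is −log10 of a p-value or q-value; which of the 2 is not given in the sources used here, nor is how experiments were combined. The submitters' processing notes name Trim Galore 0.3.7, cutadapt 1.8, Bowtie 1.0.0 and MACS2 2.0.9. MACS tests regions against input, so calls depend on library depth, which is unknown.

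Here, starts were converted to count from 1, and every deposited peak was used. The paper's stated P threshold for CAP-D3 binding sites is stricter than the lowest deposited scores and corresponds to a score of 10 if the score is −log10 of P, so values at that score are given as an alternative. Spans of genes were read from the Release 6 plus ISO1 MT annotation, and gene coordinates are not printed. Comparison genes excluded the members, and on chromosome 4 all other genes were used. Wilson and exact Poisson intervals (95%) cover counting error only. The 2-fold rule required a ratio of at least 2 and at least 3 peaks. Genes chosen for fuller description were those with the 8 highest ratios, the 5 with most peaks, and all with 0 CAP-D3 peaks or with an IgG peak. Several of them, such as dpr5, dpr13 and beat-Vb, are described only briefly. The members and lists were chosen with earlier results of these data known. Counting and overlap were checked against direct counts on the deposited peaks. The 2-fold rule was run on counts simulated at a single density per kb, with some genes raised above it. Such counts cannot show how often the rule is passed in the real data without enrichment. Genome sequence was not used here, so motifs and GC content were not analysed. Alternatives covered the score, flanks, overlap and comparison genes. Tables were handled with pandas 2.3.3 and numpy 2.4.6 in Python 3.11.15, intervals computed with scipy 1.17.1, and plots drawn with matplotlib 3.10.9.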

Additional observations from a re-analysis of the deposited data

How the results depend on the processing

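Counts followed the score threshold. At a score of at least 10, dpr12 and dpr3 passed the 2-fold rule and dpr11 did not. The members then held 94 CAP-D3 peaks (0.0633 per kb) and 13 IgG peaks at 8 members, and 9.57% of these CAP-D3 peaks overlapped an IgG peak of that score. Only 19.9% of all IgG peaks scored as high, so fewer overlaps are possible in any set of genes. The share over all CAP-D3 peaks at that score is not given here. At a score of at least 20 there were 3 CAP-D3 peaks (0.00202 per kb) at 3 members and 0 IgG peaks at 0 members, with an overlap of 0%, 0 members past the 2-fold rule and a median ratio of 0. Without the CAP-D3 peaks shared with IgG the density was 0.137 per kb. With genes of similar length taken from all chromosomes, 5 members passed the 2-fold rule, dpr5 and beat-IV in addition to dpr12, dpr3 and dpr11. The other 39 of 54 alternative values stayed near those reported, within 1.5 times for counts and median ratios and within the counting interval for the density and the share. The ratio per kb was chosen after seeing the data, and with it, as with genes within 20% of the length, dpr12 and dpr3 passed the rule and dpr11 did not. No paired analysis was possible because the samples of an antibody are represented by 1 list, and for the same reason no replicate could be left out.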

Other observations

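The stretches between neighboring members were counted as well. They run between the annotated spans without flanks and are counted by peak midpoints, unlike the member densities. They therefore take in flanks that were also assigned to members. Between dpr5 and dpr4, adjacent genes on 3R with no annotated gene between them, 13 CAP-D3 peak midpoints lay in 27.5 kb, or 0.472 per kb, a density exceeded among the members at dpr12 and dpr5. Of these, 4 had a score of at least 10 and 4 overlapped an IgG peak, and 5 IgG peaks lay in the same stretch. MACS peaks 15960 and 15972 are among the 13 and are also counted at dpr5 and dpr4, respectively. Over the 27.4 kb between dpr17 and dpr15, which hold 2 genes, there were 6 CAP-D3 peaks (0.219 per kb), and over the 137 kb between beat-IIIb and beat-IIIa, which hold 10 genes, there were 9 (0.0657 per kb). The stretch between dpr5 and dpr4 was singled out after its values were seen.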
